A study of Homo sapiens with 6 samples.

Results

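The nucleotide synthesis and salvage genes are 43 genes, of 20020 in the count table, that encode enzymes which build purine and pyrimidine nucleotides or recover them from nucleosides and bases. They were chosen by their known roles, with earlier results of these data known, so the calls below describe these members and do not test the set. All 43 had enough counts to be tested, among 12925 genes tested in all. They were compared between irradiated HCT116 cells that carry a knockout of the nuclease CAD (CAD-KO+IR, 3 libraries) and irradiated HCT116 cells with the vector control (sgVec+IR, 3 libraries). HCT116 cells come from a human colorectal carcinoma, and the study names a dose of 8 Gy and a time of 24 h after irradiation (IR) for this RNA-seq. No library of cells without IR was analysed here, so the comparison is of knockout against control after IR. The knockout cells are a stable line made with the lentiCRISPRv2 vector, which delivers Cas9 and a guide RNA, and the study names the line CAD-KO2 in the enrichment analysis of these data. The labels give the cell line and the genotype, list the molecule as genomic DNA although RNA was extracted, and do not say whether the 3 libraries of a group came from separate cultures. The p-values therefore measure the spread between these libraries, which may be technical.

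Purine nucleotides are built on phosphoribosyl pyrophosphate (PRPP), which PRPP synthetases make from ribose 5-phosphate, and the ring is closed step by step to inosine monophosphate (IMP), the precursor of AMP and GMP. Pyrimidines are made as a ring first, which is then joined to PRPP, and salvage enzymes return free bases and nucleosides to both pools at a lower energy cost. Ribonucleotide reductase and thymidylate synthase turn these nucleotides into the deoxynucleotides (dNTPs) that dividing cells need for replication and that irradiated cells need for DNA repair, and TYMS is the target of fluoropyrimidine drugs used against colorectal cancer.

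A name is shared by 2 genes here. DFFB, which is not a member, encodes caspase-activated DNase, the nuclease named CAD in the study. The member whose gene symbol is CAD encodes the trifunctional enzyme that starts pyrimidine synthesis (carbamoyl-phosphate synthetase, aspartate transcarbamylase and dihydroorotase). The study's guides are shown because they tell these 2 genes apart. The CAD-KO2 guide matched exon 2 of DFFB without a mismatch at chr1:3858741-3858760 on the forward strand of GRCh38, and the CAD-KO1 guide matched the same exon at chr1:3858788-3858808. In the lines below the guide is in lower case and the PAM, the motif that Cas9 needs next to its target, is in capitals.
CAD-KO2: gtgcctgtacgaggatggcaCGG
CAD-KO1: gtgttcccgacaacgccgagcTGG
No annotated transcript of the 43 members held a close match next to an NGG motif. In the enzyme gene CAD, the best site of the CAD-KO2 guide had 8 mismatches. Over all 43 members the best site had 7 to 10 mismatches with this guide, in PRPS1 9 and in UPP1 8, and 7 to 11 with the CAD-KO1 guide.

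The targeted gene was checked first. Values are given as CPM, which are counts scaled to the size of the library so that libraries of unequal depth can be compared. DFFB (ENSG00000169598.17, chromosome 1, 3857267 to 3885429) measured 10.03, 10.1 and 12.4 CPM in CAD-KO+IR replicates 1 to 3 and 21.8, 22.9 and 20.9 CPM in sgVec+IR replicates 1 to 3. The groups did not overlap, and DFFB mRNA was 2.02-fold lower with the knockout, at a log2 fold change (log2FC, CAD-KO+IR over sgVec+IR) of −1.02 (standard error, SE, 0.193). This passed the test in DESeq2 (adjusted p = 0.000458) and missed it in edgeR (adjusted p = 0.550). A guide that cuts the DNA need not lower the mRNA, so this value is a check of the labels and not of the protein.

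The libraries held 14032994 to 19574144 counts on genes, and the 3 CAD-KO+IR libraries were all deeper than the 3 of sgVec+IR (exact permutation test, two-sided, p = 0.1, which is the smallest possible with 3 against 3, and 0.2 when adjusted over 6 measures). The libraries sgVec+IR replicate 3 and CAD-KO+IR replicate 2 stood apart from the rest of their groups. A count of 0 was found for 7561 genes in sgVec+IR replicate 3 and for 4577 to 5232 in the other libraries, and limma gave this library a weight of 0.0404 and CAD-KO+IR replicate 2 a weight of 0.154, against 1.79 to 6.75 for the others. The fit without both is plotted for all members. Values without one or both are given beside some of the members below, and not beside every member whose sign or size they changed. Of the 8 colorectal epithelial markers, EPCAM, KRT8, KRT18, KRT19, CDH1 and CDX2 were counted in all libraries, whereas VIL1 had at most 3 counts and CDX1 none. The summed markers of other cell types were 1.002 to 2.22 CPM (CAD-KO+IR) and 4.16 to 6.07 CPM (sgVec+IR) for endothelial cells, mostly VWF, 2.43 to 2.68 and 2.69 to 3.53 CPM for leukocytes, with CD3E at 0, and 25.9 to 39.8 and 11.99 to 48.9 CPM for fibroblasts, nearly all of it COL1A1, with DCN and LUM at 0. Their part in the results below was not tested.

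Most of these genes differed little between the groups, and 2 members stood out. PRPS1, a PRPP synthetase, was higher in CAD-KO+IR, and UPP1, the uridine phosphorylase of pyrimidine salvage, was lower. A gene was called where it differed by at least 1.5-fold with an adjusted p under 0.05, the p being adjusted over all genes by Benjamini-Hochberg. In edgeR (quasi-likelihood test) 0 of the 43 members were called, against 4 of 12925 genes or 0.0309% of all genes. At an unadjusted p under 0.05 there were 3 members, PRPS1, UPP1 and UCK1, where 2.85% of all genes passed, and 2 of them, PRPS1 and UPP1, also had a fold change of at least 1.5, which 2.18% of all genes had. DESeq2, the tool of the study's methods, called 1 member higher (PRPS1; 0.17% of all genes were called higher) and 1 lower (UPP1; 0.193% lower), and limma-voom with sample weights called the same 2 members (1.64% of all genes higher and 3.51% lower). In bulk RNA, fewer cells that express a gene and less of its RNA per cell cannot be told apart.

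Of the 43 members, 22 were higher and 21 lower, with a median log2FC of 0.02 beside −0.01 for all genes tested. The fold change was under 1.2 in 32 members, against 70.3% of all genes. Leaving aside PRPS1 and UPP1, the log2FCs of the other 41 members lay between −0.46 (UCK1) and 0.42 (CTPS2), so that the largest was 1.38-fold. The 3 libraries of one group did not overlap with those of the other in 13 members (30.2%), 9 higher and 4 lower, and 10.2% of all genes had such a gap (5.23% higher and 5.01% lower). In 7 of these 13 the log2FC was under 0.32 in size (ATIC, GMPS, ADSS2, ADA, UMPS, CTPS1 and TYMS), and for TYMS the difference was 1.02-fold. The other 6, PRPS1, ADSL, CTPS2, UPP1, UCK1 and TK2, exceeded that size. Of all genes, 6.47% had both such a gap and a log2FC beyond that size.

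**Figure D1:**
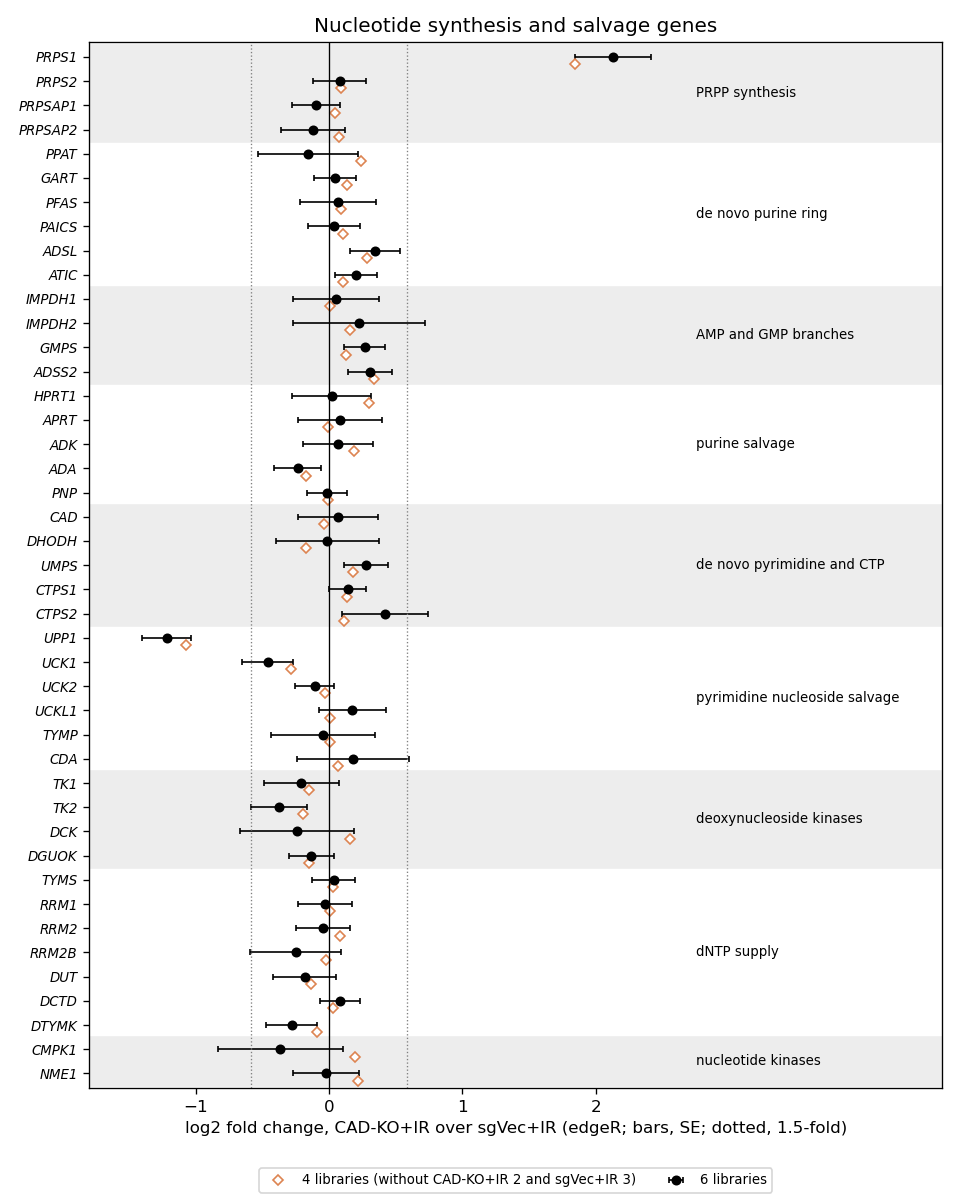
Log2FC of CAD-KO+IR over sgVec+IR for the 43 members by role. Filled circles are the edgeR fit to 6 libraries with its SE, open diamonds the fit to 4 libraries without CAD-KO+IR replicate 2 and sgVec+IR replicate 3, and dotted lines mark 1.5-fold. PRPS1 (2.13) and UPP1 (−1.22) lie outside these lines in both fits and the other 41 members inside.

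PRPP synthesis held the largest difference of the set. PRPS1 and PRPS2 encode the catalytic subunits of PRPP synthetase, which feeds purine synthesis, pyrimidine synthesis and base salvage alike. PRPS1 (ENSG00000147224.13, chromosome X, 107628424 to 107651026 on GRCh38) measured 29.7, 31.3 and 29.9 CPM in CAD-KO+IR and 8.50, 8.08 and 4.02 CPM in sgVec+IR. The means were 30.3 ± 0.883 and 6.87 ± 2.47 CPM (SD, n = 3 each). All 3 knockout libraries lay close together and far above all 3 control libraries, and the lowest control was sgVec+IR replicate 3. The log2FC was 2.13 (SE 0.285), or 4.38-fold. The adjusted p was 0.226 in edgeR, 1.13e-07 in DESeq2 and 5.54e-07 in limma-voom with sample weights, and over 13 alternative fits it ran from 1.02e-15 to 1.0. By p-value PRPS1 was the 8th of the 12925 genes in edgeR, and by the size of an increase the 15th. Without sgVec+IR replicate 3 the log2FC was 1.87 with an adjusted p of 0.0104 in edgeR, and in that fit 1 of 43 members was called higher (0.0837% of all genes) and 0 lower (0.0837%). Without both libraries that stood apart it was 1.85 with an adjusted p of 1.02e-15, where 1 member (1.06% of all genes) was called higher and 1, UPP1, lower (2.3%).

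For PRPS2, the other catalytic subunit, no gap between the groups was seen. It measured 98.0, 124 and 92.2 CPM in CAD-KO+IR and 92.2, 86.9 and 119 CPM in sgVec+IR, so that the groups overlapped, and the 2 highest values were in the libraries that stood apart. Its log2FC was 0.08 (SE 0.200, adjusted p = 1.0 in edgeR). The regulatory PRPP synthetase-associated proteins PRPSAP1 (−0.10) and PRPSAP2 (−0.12) also differed by less than the spread of the libraries.

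To compare levels between the synthetases, counts were divided by the length of the exons and scaled to the same total in each library, which gives TPM. PRPS1 stood at 42.0 ± 0.711 TPM in CAD-KO+IR and 9.72 ± 3.34 TPM in sgVec+IR (SD, n = 3 each), and PRPS2 at 138 ± 16.0 and 135 ± 26.4 TPM. PRPS1 mRNA was therefore 24.2, 21.0 and 25.4% of the summed PRPS1 and PRPS2 level in the knockout libraries and 8.84, 8.90 and 3.44% in the control libraries. PRPS2 was the more abundant of the pair in all 6 libraries.

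The coding sequences of PRPS1 and PRPS2 are shown because reads from such similar genes could be exchanged between them in counting. Both code for 318 amino acids over 957 bases (GENCODE release 29), of which 79.8% are identical, and 193 bases differ. The first 60 coding bases follow, with the 18 bases that differ between the 2 genes in capitals.
PRPS1: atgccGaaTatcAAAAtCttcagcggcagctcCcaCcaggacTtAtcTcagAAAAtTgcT
PRPS2: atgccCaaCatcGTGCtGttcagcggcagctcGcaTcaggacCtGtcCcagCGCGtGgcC
The longest run of identical bases in the coding sequences was 23. No 50-base stretch of PRPS2 transcripts occurred in a transcript of another gene, and 2.7% of the stretches of PRPS1 did, mostly in the pseudogene PRPS1P2. No exon of another gene overlapped those of PRPS1.

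**Figure D2:**
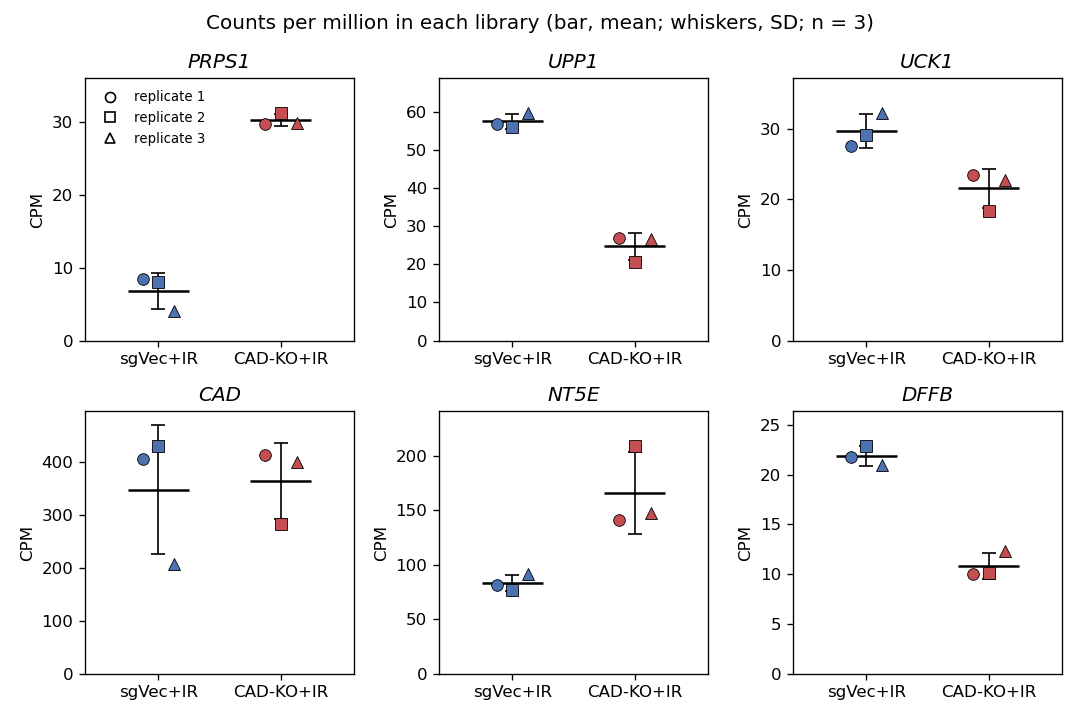
CPM in each library for PRPS1, UPP1, UCK1, the enzyme gene CAD, NT5E and the targeted gene DFFB. Each point is a library, its shape gives the replicate number, and bars and whiskers are the mean and SD of 3 libraries. The groups are apart for PRPS1, UPP1, UCK1, NT5E and DFFB and overlap for CAD, where sgVec+IR replicate 3 (207 CPM) and CAD-KO+IR replicate 2 (282 CPM) are the lowest of their groups.

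Pyrimidine nucleoside salvage held the largest decrease. UPP1 splits uridine into uracil and ribose 1-phosphate. UPP1 (ENSG00000183696.14, chromosome 7, 48088628 to 48108733 on GRCh38) measured 26.9, 20.7 and 26.5 CPM in CAD-KO+IR and 56.8, 56.1 and 59.8 CPM in sgVec+IR. The means were 24.7 ± 3.51 and 57.6 ± 1.97 CPM (SD, n = 3 each), and the highest knockout library was below the lowest control library. The log2FC was −1.22 (SE 0.181), a level 2.33-fold lower. The adjusted p was 0.294 in edgeR, 3.27e-07 in DESeq2 and 1.63e-06 in limma-voom with sample weights, with a range of 3.05e-13 to 1.0 over 13 alternative fits. UPP1 was the 12th gene by p-value in edgeR. Without both libraries that stood apart the log2FC was −1.07 (edgeR, adjusted p = 3.05e-13), and leaving out 1 library at a time it lay between −1.27 and −1.11. No exon of another gene overlapped those of UPP1.

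The uridine-cytidine kinases phosphorylate uridine and cytidine to the monophosphates. UCK1 measured 23.5, 18.4 and 22.7 CPM in CAD-KO+IR and 27.6, 29.2 and 32.3 CPM in sgVec+IR, with no overlap between the groups. Its log2FC of −0.46 (SE 0.189) had an unadjusted p of 0.0446 and an adjusted p of 1.0 in edgeR, and it was −0.29 without both libraries that stood apart. UCK2, the more abundant kinase, measured 87.4, 81.1 and 82.5 CPM against 84.8, 89.3 and 96.8 CPM, and these ranges overlapped (log2FC −0.11). The log2FC was 0.17 for UCKL1, a kinase-like protein of the same family, and 0.18 for CDA, the cytidine deaminase. Both turned without sgVec+IR replicate 3, to −0.05 and −0.15. TYMP, the thymidine phosphorylase, was at −0.04 over 6 libraries and at −0.27 without that library, and 20.7% of its exon bases overlapped exons of other genes.

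No gene of de novo pyrimidine and CTP synthesis was called in edgeR, DESeq2 or limma-voom. The enzyme gene CAD (ENSG00000084774.14, chromosome 2, 27217390 to 27243943) measured 412, 282 and 399 CPM in CAD-KO+IR and 405, 431 and 207 CPM in sgVec+IR. In each group the library that stood apart was the lowest, and the other 4 libraries lay between 399 and 431 CPM. The log2FC was 0.07 (SE 0.301, adjusted p = 1.0 in edgeR), and −0.04 (adjusted p = 0.698 in edgeR) without the libraries that stood apart. DHODH, the mitochondrial dihydroorotate dehydrogenase, had a log2FC of −0.01, and of −0.34 without sgVec+IR replicate 3, and UMPS, which completes UMP, one of 0.27.

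CTP synthetases make CTP from UTP. CTPS2 measured 29.4, 30.9 and 31.0 CPM in CAD-KO+IR and 28.4, 27.7 and 11.99 CPM in sgVec+IR, so that its log2FC of 0.42 (SE 0.323) rested on sgVec+IR replicate 3. Without that library it was 0.12. CTPS1 had a log2FC of 0.14.

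The purine ring is closed in steps by PPAT, GART, PFAS, PAICS, ADSL and ATIC, and 5 of the 6 genes were higher, with none past a test in edgeR or DESeq2. PAICS, the most abundant of them, measured 681, 897 and 719 CPM in CAD-KO+IR and 672, 638 and 935 CPM in sgVec+IR, a log2FC of 0.03 with overlapping groups. ADSL, the adenylosuccinate lyase that acts both in the ring and in the AMP branch, measured 19.0, 21.6 and 17.8 CPM against 15.5, 14.8 and 15.7 CPM. Its groups did not overlap, and the log2FC was 0.34 (SE 0.185, adjusted p = 1.0 in edgeR), with 18.9% of its exon bases shared with exons of other genes. The log2FC was −0.16 for PPAT, the amidotransferase of the first committed step, and 0.40 without sgVec+IR replicate 3. It was 0.04 for GART, 0.20 for ATIC and 0.07 for PFAS, which was at −0.12 without that library. With 1 library left out at a time, the sign changed in 4 of the 6 genes.

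From IMP, IMPDH1 or IMPDH2 and then GMPS lead to GMP, and ADSS2 opens the way to AMP. Over 6 libraries the log2FCs were 0.05 for IMPDH1, 0.22 for IMPDH2, 0.27 for GMPS and 0.31 for ADSS2, each with an adjusted p of 1.0 in edgeR. Without sgVec+IR replicate 3, IMPDH1 (−0.21) and IMPDH2 (−0.11) were lower, so that a shared direction rested on that library, and GMPS was at 0.12 without both libraries that stood apart. GMPS, the GMP synthetase, measured 175, 209 and 171 CPM in CAD-KO+IR and 163, 155 and 142 CPM in sgVec+IR, and the groups did not overlap. The inosine monophosphate dehydrogenases were unequal in level, at 115 TPM for IMPDH1 and 3.06 TPM for IMPDH2 on average over the 6 libraries. In these counts IMPDH2 was the least abundant of all 43 members, with 13 to 54 counts per library, and its level was not checked by another measure.

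In purine salvage, HPRT1 and APRT join bases to PRPP, ADK phosphorylates adenosine, ADA deaminates it and PNP splits inosine and guanosine. ADK had the highest CPM of the role and measured 79.3, 110 and 78.9 CPM in CAD-KO+IR and 67.9, 72.1 and 117 CPM in sgVec+IR. Its highest value in each group was in the library that stood apart, and the log2FC was 0.07. The log2FCs of the other members were 0.02 for HPRT1, 0.08 for APRT, −0.24 for ADA and −0.02 for PNP. Without sgVec+IR replicate 3, HPRT1 was at 0.41 and APRT at −0.18.

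The deoxynucleoside kinases, which salvage deoxynucleosides for DNA, were all 4 lower, and none passed a test in edgeR. TK1, the cytosolic thymidine kinase of dividing cells, measured 237, 125 and 205 CPM in CAD-KO+IR and 253, 241 and 162 CPM in sgVec+IR. The groups overlapped, and the library that stood apart was again the lowest of each (log2FC −0.21, SE 0.283). TK2, the mitochondrial thymidine kinase, measured 11.2, 9.60 and 10.5 CPM against 12.97, 11.9 and 15.8 CPM, without overlap, at a log2FC of −0.38 (SE 0.211, adjusted p = 1.0 in edgeR). Without both libraries that stood apart it was at −0.19, and 25% of its exon bases overlapped exons of other genes. DCK, the deoxycytidine kinase, had a log2FC of −0.24, which was 0.15 without the libraries that stood apart, and DGUOK, the mitochondrial deoxyguanosine kinase, one of −0.14.

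The 7 genes of dNTP supply had log2FCs between −0.28 and 0.08, and none passed a test in edgeR or DESeq2. RRM2, the small subunit of ribonucleotide reductase that is made in S phase, measured 498, 604 and 508 CPM in CAD-KO+IR and 503, 450 and 709 CPM in sgVec+IR, with a log2FC of −0.05, and 20.2% of its exon bases overlapped exons of other genes. The log2FC of the large subunit RRM1 was −0.03. RRM2B, the small subunit that p53 induces after DNA damage, had one of −0.25 over 6 libraries and −0.02 without those that stood apart. TYMS, the thymidylate synthase, had a log2FC of 0.03, and 46.6% of its exon bases overlapped exons of ENOSF1 or TYMSOS on the opposite strand, so that reads of these genes cannot be told apart in counts without strand. The remaining genes were DUT, the dUTPase (−0.18), DCTD, the dCMP deaminase (0.08), and DTYMK, the thymidylate kinase (−0.28, and −0.09 without both libraries that stood apart).

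CMPK1 and NME1 phosphorylate nucleoside monophosphates and diphosphates. CMPK1 measured 131, 205 and 149 CPM in CAD-KO+IR and 123, 122 and 381 CPM in sgVec+IR, and its sign rested on sgVec+IR replicate 3. The log2FC was −0.37 (SE 0.471) with that library and 0.40 without it. NME1 had a log2FC of −0.02, and of 0.24 without that library, and 18.6% of its exon bases overlapped those of other genes, the readthrough gene NME1-NME2 among them.

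Per length of exon the members spanned 2 orders of magnitude. The most abundant on average over the 6 libraries were TK1 (405 TPM), RRM2 (378 TPM) and PAICS (371 TPM), followed by RRM1 (214 TPM), RRM2B (188 TPM) and CMPK1 (178 TPM). The first 3 did not differ from each other beyond their spread. The least abundant were ADSL (8.98 TPM), TK2 (6.19 TPM) and IMPDH2 (3.06 TPM). PRPS1 (25.8 TPM) and UPP1 (33.3 TPM) were in the lower part of this order.

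**Figure D3:**
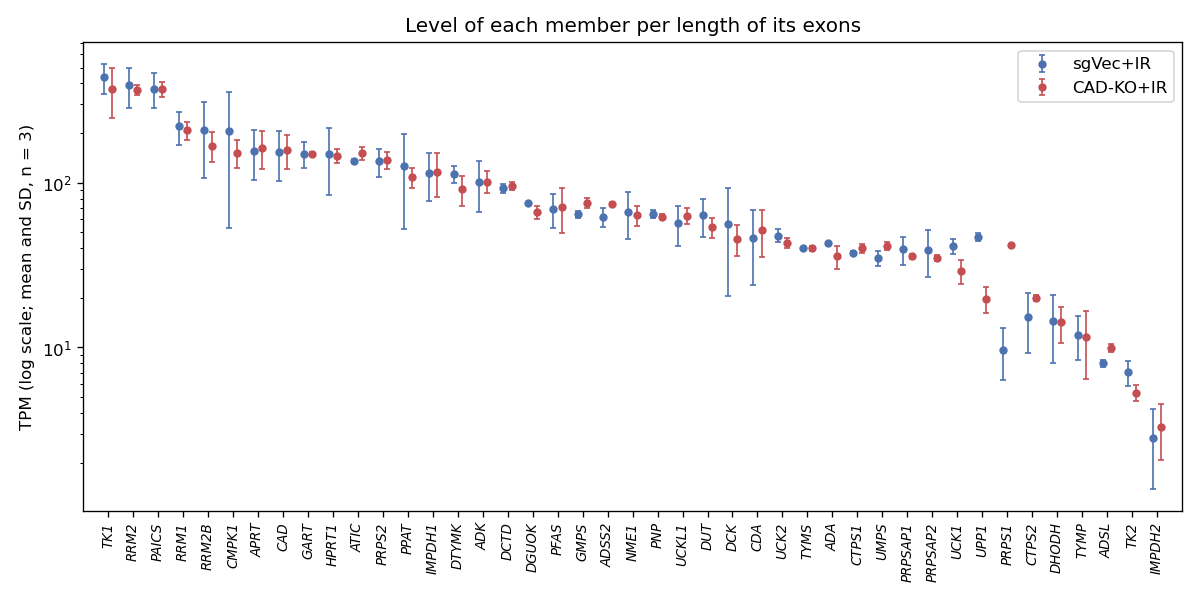
Level of each member in TPM on a log scale, ordered by the mean over 6 libraries, with the mean and SD of 3 libraries of each group. TK1, RRM2 and PAICS lead the order and IMPDH2 ends it, and the groups are clearly apart for PRPS1 (42.0 against 9.72 TPM) and UPP1 (19.7 against 47.0 TPM).

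The GC content of the members went with the deviations of the 2 libraries that stood apart. The deviation of sgVec+IR replicate 3 from the mean of replicates 1 and 2 and that of CAD-KO+IR replicate 2 from the mean of replicates 1 and 3 had the same direction in 33 of 43 members (76.7%; 81.4% of all genes). The Pearson correlation across the 43 members between GC content and deviation was −0.69 in sgVec+IR replicate 3 and −0.89 in CAD-KO+IR replicate 2, and across 12899 genes it was −0.62 and −0.77. These correlations are across genes, which share libraries and are not independent replicates.

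Of the 12 members with a GC content under 45%, among them RRM2B, PPAT, DCK, HPRT1 and CMPK1, 11 were higher in sgVec+IR replicate 3 than in its group and 12 were higher in CAD-KO+IR replicate 2, with median log2 deviations of 0.64 and 0.42. Of the 12 members with a GC content of 55% or more, among them CAD, TK1, APRT, TYMP and UPP1, 3 and 0 were higher, with medians of −0.74 and −0.56. The 19 members in between had medians of 0.02 and 0.02. PRPS1, at a GC content of 47.3%, deviated by −1.02 in sgVec+IR replicate 3 and by 0.07 in CAD-KO+IR replicate 2, and UPP1, at 55.4%, by 0.08 and −0.37. Across members, GC content and the log2FC had a Pearson correlation of −0.10 over 6 libraries and of −0.30 (Spearman −0.60) over the 4 libraries, against −0.04 and −0.30 across all genes. The part of base composition in the differences between the groups was not tested.

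**Figure D4:**
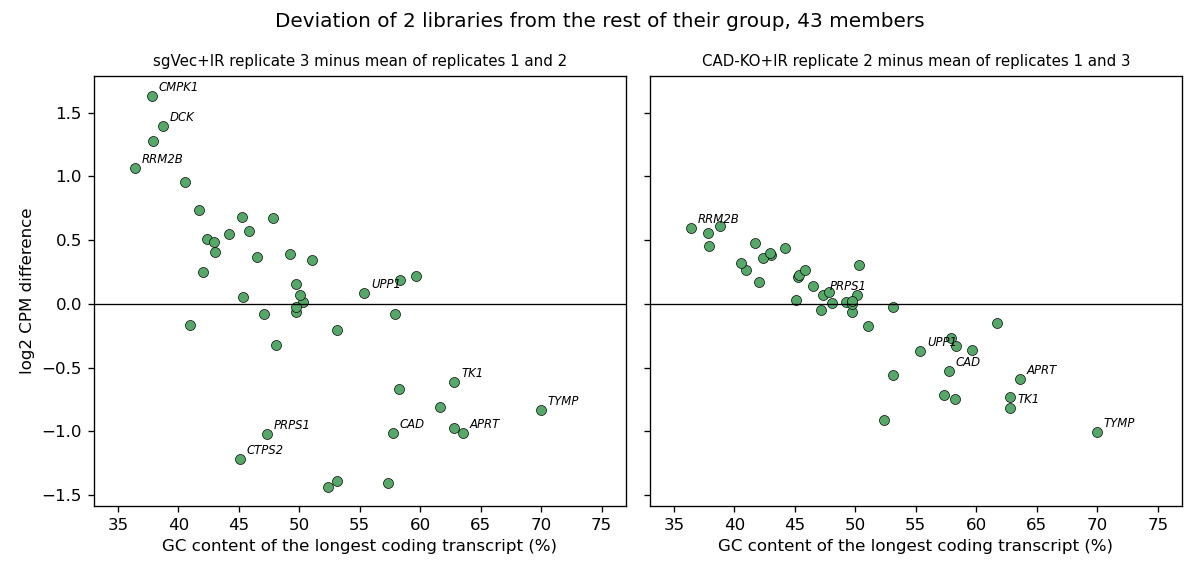
Log2 CPM difference of each of the 43 members between a library that stood apart and the mean of the other 2 libraries of its group, against the GC content of its longest coding transcript. Members under 45% GC lie mostly above 0 and those of 55% or more mostly below 0 in both panels. Of the members in between, IMPDH2 (−1.43), DHODH (−1.39), CTPS2 (−1.22) and PRPS1 (−1.02) lie lowest in sgVec+IR replicate 3.

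Without these 2 libraries, some members had an adjusted p under 0.05 in edgeR with a fold change under 1.5. They were ADSS2 (log2FC 0.34, adjusted p = 0.0015), HPRT1 (0.30, adjusted p = 0.00861), PPAT (0.24, adjusted p = 0.00711) and CMPK1 (0.19, adjusted p = 0.0398). The signs of PPAT and CMPK1 were negative over 6 libraries in edgeR. In limma-voom with sample weights, ADSS2, HPRT1 and PPAT also passed this cutoff, and CMPK1 did not (adjusted p = 0.0536). There UCK1 (log2FC −0.31, adjusted p = 0.0172) and TK1 (−0.23, adjusted p = 0.0450), both lower, and UMPS (0.20, adjusted p = 0.0399) passed it as well. These members were singled out after their values were seen. The share of all genes that passed the same cutoff was not counted in either fit, so their number cannot be set against a background.

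**Figure D5:**
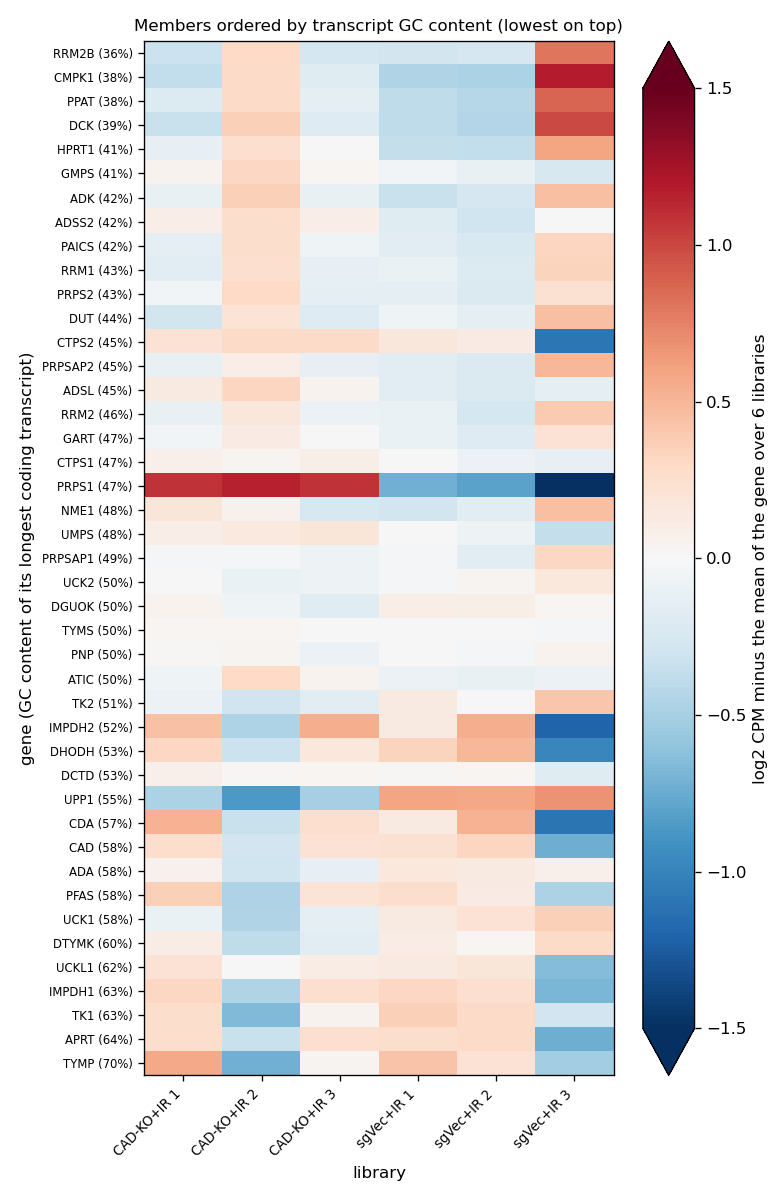
Log2 CPM of each member minus its mean over 6 libraries, with members in rows ordered by GC content from the lowest on top. The columns of CAD-KO+IR replicate 2 and sgVec+IR replicate 3 turn from red to blue down the rows, whereas PRPS1 is red in the 3 CAD-KO+IR columns and blue in the 3 sgVec+IR columns and UPP1 the reverse.

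Other genes of the nucleotide pathways were taken from 5 hand-made lists of 77 genes, of which 68 were tested. Of these 31 were higher and 37 lower, with a median log2FC of −0.02, and edgeR called 0, with NT5E alone at an unadjusted p under 0.05, while DESeq2 called NT5E. NT5E encodes CD73, the surface enzyme that turns extracellular AMP into adenosine, and belongs to the nucleotide breakdown list, where 13 of 19 genes were higher and 6 lower. It measured 141, 210 and 148 CPM in CAD-KO+IR and 81.0, 76.7 and 91.5 CPM in sgVec+IR, so that every knockout library lay above every control library. The log2FC was 0.999 (SE 0.205), with an adjusted p of 0.688 in edgeR and 0.00754 in DESeq2, and of 1.91e-14 in edgeR without the 2 libraries that stood apart, where the log2FC was 0.87.

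In the other lists no gene passed a test in edgeR or DESeq2. Folate and one-carbon genes, which donate carbons to the purine ring and to thymidylate, were higher in 5 and lower in 10 of 15. Genes of ribose 5-phosphate supply were higher in 4 and lower in 5 of 9, other nucleotide kinases and pool-cleaning enzymes in 6 and 11 of 17, and transporters in 3 and 5 of 8. The largest fold change in each had a low count or rested on sgVec+IR replicate 3. MTHFS, of folate recycling, had at most 0.921 CPM (log2FC 1.08), and RBKS, the ribokinase, at most 3.24 CPM (−0.80). ADSS1, the muscle-type adenylosuccinate synthase, had at most 8.35 CPM (−0.69), and SLC43A3, a purine base transporter, measured 34.7 CPM in sgVec+IR replicate 3 and 12.7 to 16.8 CPM in the other 5 libraries (−0.61).

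Several members, such as TK1, RRM2 and TYMS, are expressed mainly in S phase, so a list of 16 S-phase and proliferation genes was set beside them. In that list 9 genes were higher and 7 lower with a median log2FC of 0.02, and 0 were called in edgeR or DESeq2, with 0 at an unadjusted p under 0.05 in edgeR. Their summed level was 3499 to 3534 CPM in CAD-KO+IR and 3229 to 3677 CPM in sgVec+IR, and these ranges overlapped. The largest difference was that of CCNE2, a cyclin of the entry into S phase, at 0.44.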

How the data were processed

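RNA-seq of irradiated HCT116 cells was analysed in 6 libraries, 3 of CAD-KO+IR and 3 of sgVec+IR. The authors extracted RNA with TRIzol, prepared libraries with a SMARTER mRNA kit and trimmed the reads in fastp. The deposited values are whole-number counts of reads for each gene from featureCounts (v1.5.0-p3), without normalization. Their methods then used DESeq2 (v1.36.0) with the thresholds used here. The study reports more genes in each direction than the 22 higher and 25 lower that DESeq2 called here, and the reason was not tested. The aligner, the annotation and the strand setting are not given in the sources used here. The processing notes list the build mm10, whereas the gene identifiers are human. Positions, lengths, GC content and sequences came from GENCODE release 29 on GRCh38, which holds 19823 of the 20020 identifiers, and the guides from the study's supplement.

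Genes were kept by filterByExpr (minimum count 10, minimum total 15). The test was edgeR's quasi-likelihood test (edgeR 4.0.16, R 4.3.3, legacy set to FALSE) with TMM scaling over 12925 genes. Alternatives used DESeq2 1.42.0, limma 3.58.1 (voom with sample weights), other scaling, no filter, a replicate block, and fewer libraries. Fold changes are CAD-KO+IR over sgVec+IR. TPM were computed from the counts and exon lengths. Library measures were compared with two-sided exact permutation tests (scipy 1.17.1). Scripts were tested on simulated data. Totals were 14032994 to 19574144 counts per library, and a count of 0 over a group allows up to 0.0540 CPM in CAD-KO+IR and 0.0670 CPM in sgVec+IR (3 counts, counting error only).

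The members and lists were chosen with earlier results of these data known. Values in every library are given for DFFB, CAD, PRPS1 and UPP1, for members called in edgeR or DESeq2 or with an unadjusted p under 0.05, for members whose groups do not overlap with a fold change of at least 1.25, and for the member with the highest CPM of each role. Of the other lists, up to 4 genes with an unadjusted p under 0.05 are named, or else the gene with the largest fold change.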

Additional observations from a re-analysis of the deposited data

How the results depend on the processing

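Over the alternatives run, PRPS1 stayed higher (log2 fold change 1.85 to 2.32) and UPP1 lower (−1.27 to −1.07), and the call depended on the setting. DESeq2, voom with sample weights and edgeR without the 2 libraries that stood apart each called 1 member higher and 1 lower, as did an unadjusted p with the same fold change, where edgeR on 6 libraries called 0. Leaving out 1 library at a time gave 0 to 1 higher, the 1 without sgVec+IR replicate 3, and 0 lower. Over all genes the 4 calls became 47 in DESeq2, 666 with sample weights, 440 without the 2 libraries, 282 with an unadjusted p and 0 to 22 with 1 library left out, the 22 without sgVec+IR replicate 3. The 3 counts of 0, each without a CAD-KO+IR library, stood beside 82 higher and 99 lower genes, 67 and 122, and 65 and 90 at an unadjusted p under 0.05 with a fold change of at least 1.5. The deviations of same-numbered libraries from their group means had correlations of 0.468, −0.545 and −0.379. The libraries that stood apart bear unlike replicate numbers and deviated mostly in the same direction. These values therefore cannot show whether replicate numbers pair the libraries. The fit with the replicate block called 0 genes (62 higher and 82 lower with an unadjusted p). Of the other pathway genes, 1 was called in DESeq2, 3 with sample weights (NT5E, SLC25A32 and XDH), 1 without the 2 libraries and 1 with an unadjusted p. SLC25A32 had 10, 20 and 14 counts in CAD-KO+IR and 5, 1 and 30 in sgVec+IR, with 80.8% of its exon bases overlapping other genes. XDH had 26, 11 and 34 counts in CAD-KO+IR and 12, 9 and 0 in sgVec+IR. For both genes the counts were low and the groups overlapped. The members' median log2 fold change was 0.0189, and 0.0660 without the 2 libraries, with −0.0409 to 0.0464 over the fits without 1 library. Signs of small differences turned. CAD was at −0.058 with sample weights, −0.038 without the 2 libraries and −0.20 to 0.26 with 1 library left out. RRM2 was at 0.085, 0.082 and −0.17 to 0.17 in the same fits, and CMPK1 at 0.24, 0.19 and −0.63 to 0.40. With 1 library left out the range was −0.062 to 0.23 for PRPS2, −0.098 to 0.23 for PAICS, −0.11 to 0.36 for ADK and −0.39 to 0.018 for TK1. Over the 6 such fits the sign changed in 26 of 43 members and in 8050 of the 12925 genes tested. The cause was not tested. Among the other 41 members the largest difference, 1.38-fold for UCK1, had an adjusted p of 1.0 in edgeR and DESeq2 and of 0.0172 with sample weights, under the 1.5-fold limit in each, and at 3 libraries a group smaller ones may be missed.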

Other observations

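The chromosomal neighbours of the genes with the largest differences were read from the same fit. The 10 tested genes nearest to PRPS1 on chromosome X, all within 0.724 Mb, had log2 fold changes of −0.99 to 0.81 with a median of −0.10, and 5 of them were higher. MID2 and COL4A6 were the neighbours with an unadjusted p under 0.05 in edgeR. The 10 tested genes nearest to UPP1 on chromosome 7 had log2 fold changes of −0.46 to 0.33 with a median of −0.08, and none had an unadjusted p under 0.05. The 10 nearest to NT5E on chromosome 6 had a median of −0.09 and a range of −0.28 to 1.52. The difference of PRPS1 was thus larger than that of each of its 10 nearest tested neighbours, and the same held for UPP1.

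PRPS1L1, the third PRPP synthetase gene, which is known from testis, had 0 counts in all 6 libraries, which allows at most 0.0540 CPM over the CAD-KO+IR group and 0.0670 CPM over the sgVec+IR group.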
